A study of Mus musculus with 24 samples.

Results

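The immunoglobulin genes of mouse quadriceps muscle were taken as every heavy, kappa or lambda variable (V) segment symbol that reached 1 TPM (a transcript's length-scaled share of all transcripts in the library) in at least 1 of 24 libraries, together with 9 constant region genes and the joining chain gene Jchain. This gave 147 of 33641 gene symbols: 63 of 183 heavy V segments, 71 of 160 kappa V segments, all 3 lambda V segments and the 10 genes given by name. The V segments were thus chosen by their own values, and their numbers and levels are given as a description. Just inside the limit lay Igkv4-61, Ighv1-19-1 and Ighv2-6, with highest values of 1.002, 1.014 and 1.019 TPM, and just outside it lay Igkv8-18, Ighv10-1 and Ighv8-12, with 0.938, 0.935 and 0.895 TPM. Of the 137 V segments, 134 were annotated as functional V genes and 3 (Ighv1-19-1, Ighv1-35 and Ighv1-62) as pseudogenes.

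The muscles came from wild-type C57BL/6JN mice, supplied by an ageing colony, that were 4 months (young) or 24 months (old) old when treatment began. Males and females of each age received either vehicle or prednisone, a synthetic glucocorticoid, at 1 mg/kg by weekly intraperitoneal injection at the start of the light phase, and muscle was taken 4 h after the last injection. All mice carried the same wild-type background and all were injected, so the 8 groups (age by sex by treatment, 3 libraries each) differ only in those 3 respects as far as the labels say. The sources used here do not state the number of weeks or whether the 3 libraries of a group came from separate mice, so p-values measure only the spread between these libraries. Muscle identity was clear in every library: 7 skeletal muscle genes summed to between 76568 and 106109 TPM.

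Antibodies are built from 2 heavy and 2 light chains. Each B cell joins 1 heavy V segment and 1 light V segment to smaller segments, and the constant region sets the class (Ighm for IgM, Ighg for IgG, Igha for IgA). Different clones can use the same V segment, so a V segment alone does not identify a clone. The joins were not measured here. When a B cell becomes a plasma cell, it makes large amounts of antibody RNA, shifts Ighm from the membrane form to the secreted form, and expresses Jchain, which links IgM and IgA into polymers. Antibody genes are rearranged in B cells, which muscle can hold within the tissue or in its blood. In whole muscle, fewer such cells and less RNA per cell cannot be told apart.

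Some of the V segments that led or stood high in the antibody RNA of old muscle are shown here. Given are the last 60 coding bases of the germline gene (GENCODE M21 on GRCm38/mm10). These bases hold the end of the third framework region and so mark the stretch that runs up to the join. Capitals mark the last in-frame match to TANNNNTGN, the codons of a conserved tyrosine and, 2 codons on, a conserved cysteine, which was present in 133 of 134 annotated members and in 97.2% of 218 V segments in the annotation (coding strand only).
Ighv14-4: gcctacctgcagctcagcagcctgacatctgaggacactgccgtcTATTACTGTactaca
Ighv1-53: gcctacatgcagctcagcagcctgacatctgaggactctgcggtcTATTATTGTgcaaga
Ighv1-72: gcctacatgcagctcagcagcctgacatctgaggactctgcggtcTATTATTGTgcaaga
Ighv5-17: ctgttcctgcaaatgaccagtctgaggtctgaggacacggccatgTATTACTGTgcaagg
Ighv2-9-1: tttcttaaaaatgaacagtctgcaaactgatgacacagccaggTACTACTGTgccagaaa
Ighv11-2: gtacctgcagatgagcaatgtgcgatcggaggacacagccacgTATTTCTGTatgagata
Igkv6-20: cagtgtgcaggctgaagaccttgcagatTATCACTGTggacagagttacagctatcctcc
Igkv3-2: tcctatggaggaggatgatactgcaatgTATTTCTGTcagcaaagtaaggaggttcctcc
Igkv10-96: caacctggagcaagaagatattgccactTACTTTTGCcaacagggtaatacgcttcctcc
Igkv14-126: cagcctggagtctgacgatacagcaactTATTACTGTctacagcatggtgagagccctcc

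The heavy segments lie on the minus strand of chromosome 12, Ighv14-4 at chr12:114176438-114176497, Ighv1-53 at chr12:115158403-115158462, Ighv1-72 at chr12:115757984-115758043, Ighv5-17 at chr12:113859149-113859208, Ighv2-9-1 at chr12:113769850-113769909 and Ighv11-2 at chr12:114048241-114048300. The kappa segments lie on chromosome 6, Igkv6-20 at chr6:70335841-70335900 (minus), Igkv3-2 at chr6:70699008-70699067 (plus), Igkv10-96 at chr6:68631963-68632022 (minus) and Igkv14-126 at chr6:67896583-67896642 (plus). Each stretch is in the second of 2 coding exons. Ighv1-53 and Ighv1-72 are identical over these bases, and reads confined to them cannot be told apart. Over whole coding sequences, 69 of 134 members had another germline V segment at 95% identity or more (median identity to the nearest segment, 95.3%), so the split of reads between close relatives is uncertain. For Ighv1-72, whose nearest relative is Ighv1-62-3 at 99.2% identity, only 2.18% of 31-base words were unique. Igkv14-126 was the clearest of the 10, with 94.1% of such words unique.

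Before the results, 1 property of the libraries needs stating: library 3 of a group tended to lie between libraries 1 and 2, and the V segments show this segment by segment. Over the 8 groups, 55 times a V segment was at 5 TPM or more in library 1 or 2 and under 1 TPM in the other, and in 54 of these library 3 held the middle value. All 47 segments private to library 1 in this sense, and 7 of 8 private to library 2, were at 1 TPM or more in library 3. No segment was at 5 TPM or more in library 3 and under 1 TPM in both others. The same count was 0 for library 1 and 1 for library 2, so it does not set library 3 apart. In old male vehicle muscle the V segment TPM of library 3 was fitted by 0.347 times library 1 plus 0.616 times library 2 with R2 = 0.997, and in old female prednisone muscle by 0.736 and 0.315 with R2 = 0.997. R2 was 0.969 in old male prednisone and 0.950 in old female vehicle muscle, and lower in the young groups, where V segment RNA was scarce: 0.881 in female vehicle, 0.860 in male prednisone, 0.476 in male vehicle and 0.399 in female prednisone muscle. Libraries 1 and 2 did not share segments in this way: their overlap in segment use (the summed smaller share) had a median of 37.4% for heavy chains in the 4 old groups, against 27.9% between old libraries of different groups. The cause was not tested. Every comparison was therefore fitted with 24 and with 16 libraries (1 and 2 of each group), and a gene is said to have risen or fallen only where it passed in both.

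**Figure D1:**
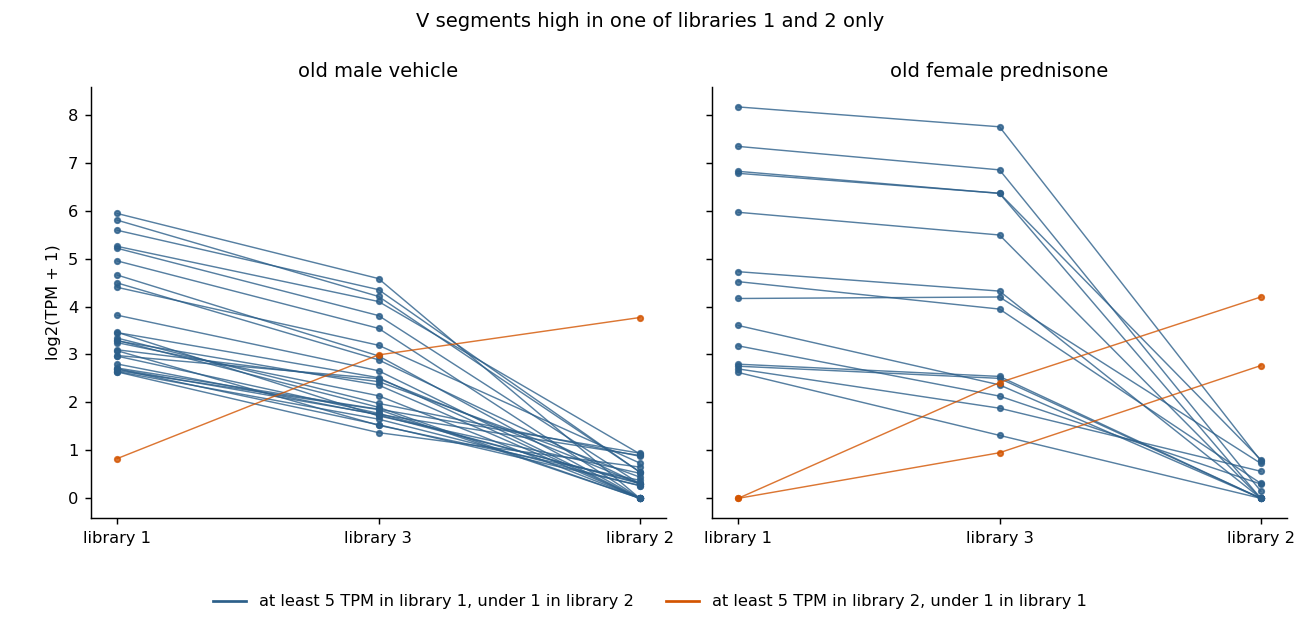
V segments at 5 TPM or more in library 1 or 2 and under 1 TPM in the other, in old male vehicle (28 segments) and old female prednisone muscle (16 segments); the y axis is log2(TPM + 1), the x axis the library, with library 3 drawn in the middle, and each line is 1 segment. In 28 of 28 and 15 of 16 segments the library 3 value lies between the other two.

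Antibody RNA was higher in old than in young muscle, most of all for the kappa light chain and the joining chain. Igkc, the kappa constant region carried by most mouse antibodies, was at 11.4 to 48.7 TPM in the 12 young libraries and at 58.3 to 2607 TPM in the 12 old ones. These ranges do not overlap. With age averaged over sex and treatment, Igkc rose by 3.77 ± 0.25 on the log2(TPM + 1) scale (SE; limma adjusted p = 2.92e-09 with 24 libraries and 0.000434 with 16). Jchain rose by 2.35 ± 0.20 (7.71e-08 and 0.00204). Its libraries ran from 0.603 to 3.14 TPM in young muscle and from 2.95 to 78.7 TPM in old muscle, and the lowest old library lay within the young range.

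Of the 9 constant and joining chain genes that passed the filter on low values (1 TPM in at least 3 libraries), 9 were higher in old muscle with 24 libraries and 7 with both fits, where 14.8% and 4.88% of all 13005 tested genes were higher. Their median log2 difference was 1.27, against -0.01 over all tested genes. The 7 that rose were Igkc, Jchain, both lambda constant regions (Iglc1 by 2.29 ± 0.31 and Iglc2 by 1.24 ± 0.17), Ighg2b by 1.27 ± 0.17, Ighg2c by 0.90 ± 0.11 and Igha by 0.78 ± 0.14. Ighm and Ighg3 passed with 24 libraries only: the log2 difference of Ighm was 0.84 ± 0.22 (adjusted p = 0.00706 with 24 and 0.175 with 16), and that of Ighg3 was 1.56 ± 0.53 (0.0306 and 0.342). Ighg3 passed the filter only through old male vehicle and old female prednisone libraries 1 and 3, where it was high. Its call for age therefore supports nothing further. Ighg1 was not tested, because too few libraries reached 1 TPM. All 7 calls held without the 4 libraries that carried the most antibody RNA (old male vehicle 1 and 3, old female prednisone 1 and 3), a setting chosen after seeing the data.

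**Figure D2:**
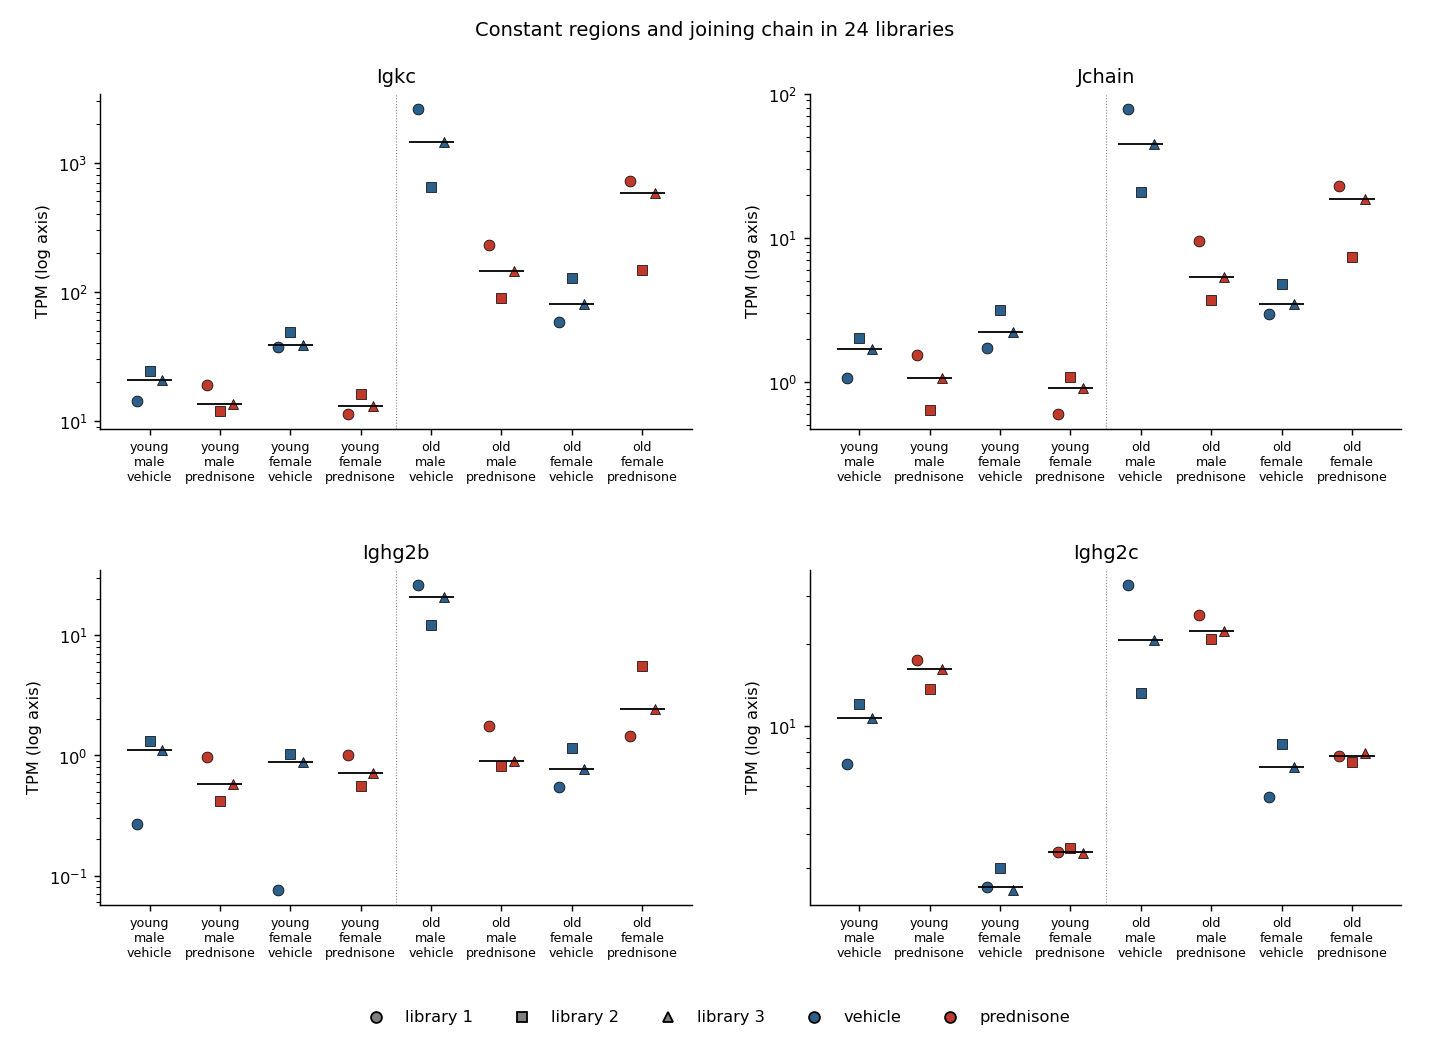
TPM of Igkc, Jchain, Ighg2b and Ighg2c (log axes) in the 24 libraries by group; symbols give the library number, colour the treatment and bars the group median. Igkc in old muscle (58.3 to 2607 TPM) lies above all young libraries (11.4 to 48.7 TPM), and Ighg2c is lower in females at both ages.

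The old groups differed widely from each other. In old male vehicle muscle Igkc was at 2607, 649 and 1439 TPM in libraries 1 to 3. With prednisone old males had 232, 88.6 and 145 TPM. Old females showed the opposite order, with 58.3, 128 and 80.7 TPM under vehicle and 716, 146 and 576 TPM under prednisone. Within each sex the 2 treatments did not overlap, although in females the gap between 128 and 146 TPM was small. Jchain had the same layout: 78.7, 20.8 and 44.9 TPM in old male vehicle, 9.58, 3.70 and 5.33 in old male prednisone, 2.95, 4.78 and 3.503 in old female vehicle and 22.9, 7.38 and 18.5 in old female prednisone muscle.

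In old males, 7 of 9 constant and joining chain genes were lower with prednisone in the fit of 24 libraries, where 19.9% of all genes were, and 1 with both fits, where 0.692% were. The median over the 9 genes was -1.97, against -0.13 over all tested genes. The gene past both was Ighg2b, an IgG heavy chain, which fell by 3.23 ± 0.33 (adjusted p = 3.6e-06 and 0.0309). Its libraries were at 26.4, 12.1 and 20.8 TPM with vehicle and at 1.76, 0.817 and 0.897 TPM with prednisone, with no overlap. Igkc differed by -3.22 ± 0.50 and Jchain by -2.66 ± 0.40 on the log2 scale, with adjusted p = 0.000278 and 0.000173 in 24 libraries but 0.0810 for each in 16. Iglc1 (-3.86 ± 0.61), Iglc2 (-1.97 ± 0.34), Igha (-1.83 ± 0.27) and Ighm (-1.54 ± 0.45) behaved alike, past 0.05 with 24 libraries and not with 16. Ighm also missed it without old male vehicle library 1 (0.104) or library 3 (0.0554).

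In old females the differences ran the other way and none passed both fits. With 24 libraries 3 of 9 genes were higher with prednisone, against 0.83% of all genes: Igkc by 2.20 ± 0.50 (adjusted p = 0.0418), Jchain by 1.75 ± 0.40 (0.0407) and Iglc2 by 1.76 ± 0.34 (0.0177). With 16 libraries each had an adjusted p of 1, and 5 of the 9 had an unadjusted p under 0.05. Leaving out old female vehicle library 1 or 3, or old female prednisone library 1 or 3, also raised the adjusted p of these 3 genes above 0.05, so that none of them was called. Ighg3 was the most uneven: 102, 0.105 and 81.0 TPM in the 3 prednisone libraries and 0.0433 to 0.175 TPM with vehicle. The treatment effect in old females minus that in old males, a contrast chosen after seeing the effects in each sex, was 5.42 ± 0.71 for Igkc and 4.41 ± 0.56 for Jchain (adjusted p = 0.000181 and 0.000154 with 24 libraries, 0.152 and 0.152 with 16). In that contrast 8 of 9 constant and joining chain genes were past 0.05 with 24 libraries and 0 with both fits (6 had an unadjusted p under 0.05 with 16), where 12.4% and 0.00769% of all genes were higher. The 8 include Ighg3, which passed the filter on low values only through libraries where it was high.

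Averaged over the sexes, prednisone gave no constant region call in old mice with both fits. Ighg2b was lower with 24 libraries (-1.08 ± 0.23, adjusted p = 0.00874, 0.395 with 16), 1 of 9 genes where 6.4% of all genes were lower, and it missed 0.05 in 4 of 33 alternative settings. The log2 difference of Igkc was -0.51 ± 0.36 (0.39). In young mice none of the 9 genes passed (2 had an unadjusted p under 0.05 with 24 libraries, and 0 with 16). Igkc was at 37.1, 48.7 and 38.8 TPM in young female vehicle muscle and at 11.4, 16.2 and 12.9 TPM with prednisone, without overlap, while in young males the ranges of 14.2 to 24.3 and 11.8 to 18.8 TPM overlapped. Over both sexes the young difference of Igkc was -0.98 ± 0.36 (adjusted p = 0.247). Of the V segments, 1 of 82 tested was lower in young mice with prednisone in 24 libraries and 0 in 16, where 0.0308% of all genes were lower.

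The 2 annotated transcripts of Ighm differed in how they changed between groups. The shorter, Ighm-201 (4 exons, chr12:113420741-113422730, minus strand), ends in the secreted tail, and the longer, Ighm-202 (6 exons, chr12:113418558-113422730), carries the membrane exons. The secreted form was at 12.6 to 39.5 TPM in young libraries. In old muscle it was at 1187, 229 and 588 TPM in male vehicle, 103, 59.6 and 82.9 in male prednisone, 34.1, 64.1 and 45.4 in female vehicle and 223, 64.0 and 173 in female prednisone libraries. Only old female vehicle library 1 fell within the young range. The membrane form, by contrast, was at 58.5 to 398 TPM in young and at 50.4 to 322 TPM in old libraries, which overlap widely. The secreted share of Ighm TPM was thus 8.64 to 29.0% in young muscle, 77.3 to 78.7% in old male vehicle, 30.2 to 36.3% in old male prednisone, 24.6 to 41.1% in old female vehicle and 50.2 to 56.0% in old female prednisone muscle.

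The membrane form stood alone in young muscle. Young libraries with 58.5 to 398 TPM of membrane Ighm held 0.592 to 10.4 TPM of all heavy V segments together. Cd79a, the signalling partner that B cells need to place IgM on their surface, reached at most 0.737 TPM in them, and Ighd, the IgD constant region of naive B cells, at most 0.623 TPM. The membrane form was higher in young males (141 to 398 TPM) than in young females (58.5 to 97.9 TPM), with no overlap. Heavy V segments summed to 2.44 to 4.73 TPM in young males, to 9.46 to 10.4 TPM in young female vehicle and to 0.592 to 3.91 TPM in young female prednisone muscle. What gave the membrane reads was not tested.

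**Figure D3:**
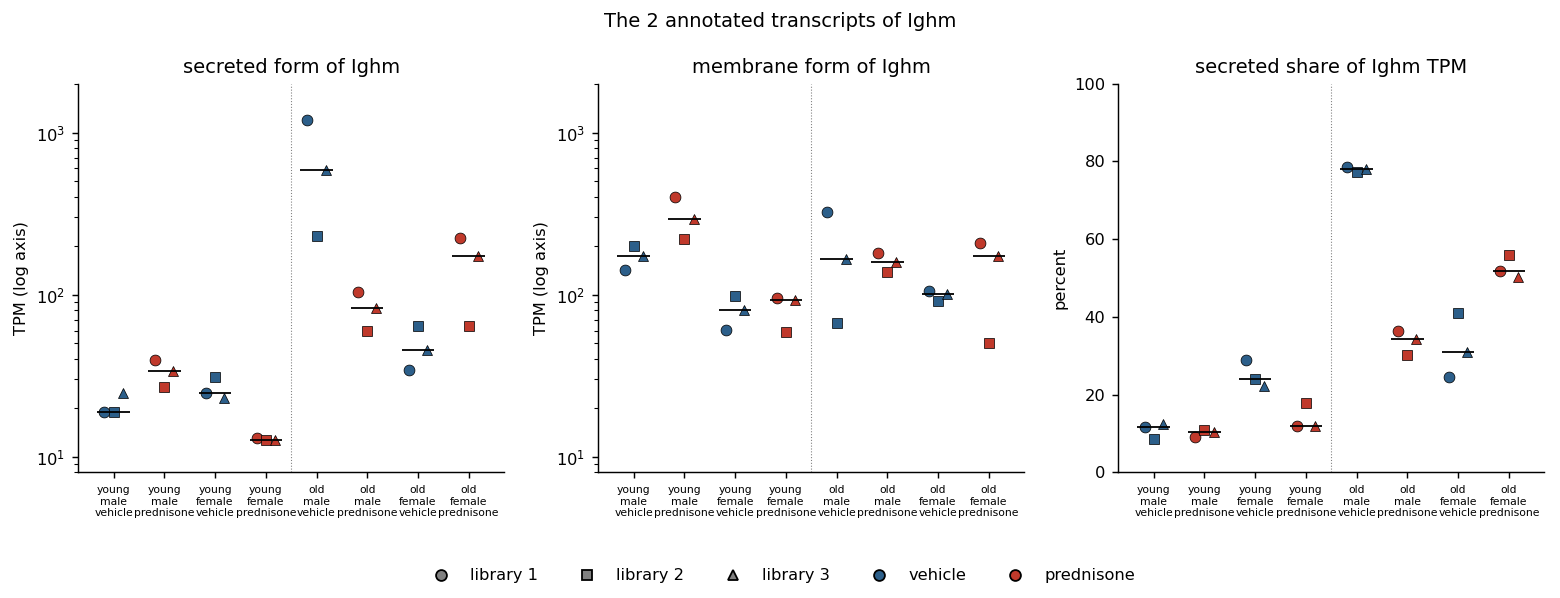
TPM of the secreted and the membrane transcript of Ighm (log axes) and the secreted share in percent, in the 24 libraries by group; symbols give the library number, colour the treatment and bars the group median. The membrane form spans similar ranges at both ages (58.5 to 398 and 50.4 to 322 TPM), while the secreted share is 77.3 to 78.7% in old male vehicle muscle and at most 29.0% in young muscle.

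Ighg2c, an IgG class that C57BL/6 mice carry, differed by sex at both ages. Young males had 7.24, 12.1 and 10.7 TPM under vehicle and 17.5, 13.6 and 16.1 under prednisone. Young females had 2.50 to 3.55 TPM, with no overlap. It was lower in females by 1.73 ± 0.15 on the log2 scale in young mice (adjusted p = 1.68e-07 and 0.00428) and by 1.46 ± 0.15 in old mice (adjusted p = 2.71e-06 and 0.0137), where males had 13.2 to 33.0 and females 5.48 to 8.60 TPM. The comparison in young mice was added after these levels had been seen. In it 3 of 9 constant and joining chain genes were lower in females with 24 libraries (Ighg2c, Ighm and Igha) and 1 with both fits, against 4.05% and 0.738% of all genes. In old mice 7 of 9 were lower in females with 24 libraries and 1 with both fits, against 4.69% and 0.531%. That contrast averages vehicle and prednisone. The median Igkc of old females was below that of old males under vehicle and above it under prednisone. Ighg2c was lower in old females under both. With prednisone the log2 difference of Ighg2c was 0.13 ± 0.22 in old males and 0.13 ± 0.22 in old females. The limma adjusted p with 24 libraries was 0.697 and 0.885. Nearly all of the Ighg2c TPM was in Ighg2c-202 (4 exons, chr12:113287285-113288932, minus strand), at 2.50 to 16.4 TPM in young libraries, and little in the longer Ighg2c-201 (6 exons, at most 1.45 TPM in young libraries). In young mice membrane Ighm was also higher in males. Heavy V segment RNA was lower in young males under vehicle (2.44 to 4.65 against 9.46 to 10.4 TPM in females). Under prednisone it was higher in males (3.97 to 4.73 against 0.592 to 3.91 TPM). Which cells gave the Ighg2c reads in young muscle was not tested.

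Other IgG classes marked single libraries. Ighg1 reached 21.4 TPM in old male vehicle library 2 and 13.8 TPM in library 3, was at 0.696 TPM in library 1 and did not exceed 0.815 TPM in any other library. Ighg3 stood at 102 and 81.0 TPM in old female prednisone libraries 1 and 3 and at 8.40 and 3.62 TPM in old male vehicle libraries 1 and 3, and was at or under 0.725 TPM elsewhere. Igha was highest in old male vehicle muscle (5.50, 8.64 and 6.09 TPM) and did not exceed 2.34 TPM in the other old groups. Kappa made up 88.4 to 98.8% of light chain constant region TPM in every library, so lambda was the minor light chain in all groups.

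More V segments reached 1 TPM in most old libraries than in young ones. Young libraries held 4, 4 and 5 such segments in male vehicle, 3, 4 and 4 in male prednisone, 13, 13 and 10 in female vehicle and 3, 2 and 3 in female prednisone muscle. Old libraries held 116, 54 and 103 in male vehicle, 18, 14 and 18 in male prednisone, 9, 22 and 12 in female vehicle and 47, 20 and 45 in female prednisone muscle. Old female vehicle libraries 1 and 3, with 9 and 12 segments, lay within the young range of 2 to 13, and every other old library lay above it. In old males every vehicle library held more segments than any prednisone library, and in old females the ranges overlapped (9 to 22 and 20 to 47). The mean over groups was 34.2 segments higher in old than in young muscle, beside a spread within groups of 12.995 segments (SD). Prednisone minus vehicle in old muscle was -25.7 segments, beside a spread of 18.4 segments. Without old male vehicle library 1 the treatment difference was -19.4, and without library 2 it was -34.9.

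This number moved with the amount of V segment RNA. The summed V segment TPM was 10.52 to 39.3 in young libraries, 3183, 403 and 1369 in old male vehicle, 220, 85.6 and 131 in old male prednisone, 51.8, 105 and 69.2 in old female vehicle and 984, 137 and 757 in old female prednisone muscle. Counting instead the segments that made up at least 1% of their own chain in that library, the age difference was 2.58 segments, with 3 to 19 heavy and 8 to 19 kappa segments per library. The sequencing depth is unknown from TPM, and a segment listed at 0 in a library with little antibody RNA can be one that was not sampled.

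How evenly the segments were used was measured by the effective number, the number of equally used segments with the same Shannon entropy. For heavy chains it was 16.9, 16.3 and 19.8 in old male vehicle muscle and at most 10.4 in each other library. Old male prednisone muscle had 7.64, 8.89 and 8.98, old female vehicle 5.84, 10.4 and 9.02 and old female prednisone 5.24, 6.81 and 5.37. Young libraries had 1.43 to 10.3. The difference in mean between old and young muscle was 3.45, with a spread within groups of 2.03 (SD). An effective number cannot exceed the number of segments above 0. For heavy chains that number was 3 to 15 in young and 10 to 61 in old libraries. By the inverse Simpson index, which weights the leading segments more, old male vehicle libraries 1 to 3 had 8.95, 9.67 and 9.99. Young female prednisone library 3 had 9.66 by that index, so old male vehicle library 1 was not above each other library. In old female prednisone muscle the leading 3 segments held 83.1, 69.4 and 82.7% of heavy V TPM. In old male vehicle library 1 the leading 3 segments held 52.6%.

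For kappa chains the effective number did not separate the ages. It was 10.2, 20.7 and 14.5 in old male vehicle, 7.01, 12.01 and 11.1 in old male prednisone, 7.67, 13.8 and 13.7 in old female vehicle and 7.08, 6.44 and 8.56 in old female prednisone muscle, and 4.03 to 15.1 in young muscle. The difference in mean was 0.24, with a spread within groups of 3.21 (SD), and it changed sign with the inverse Simpson index (-1.80). Evenness, which divides the entropy by its maximum for the number of segments above 0, was 0.520 to 0.766 for kappa in old and 0.634 to 0.938 in young libraries, which overlap. For heavy chains it was 0.478 to 0.807 in old and 0.324 to 0.998 in young libraries.

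**Figure D4:**
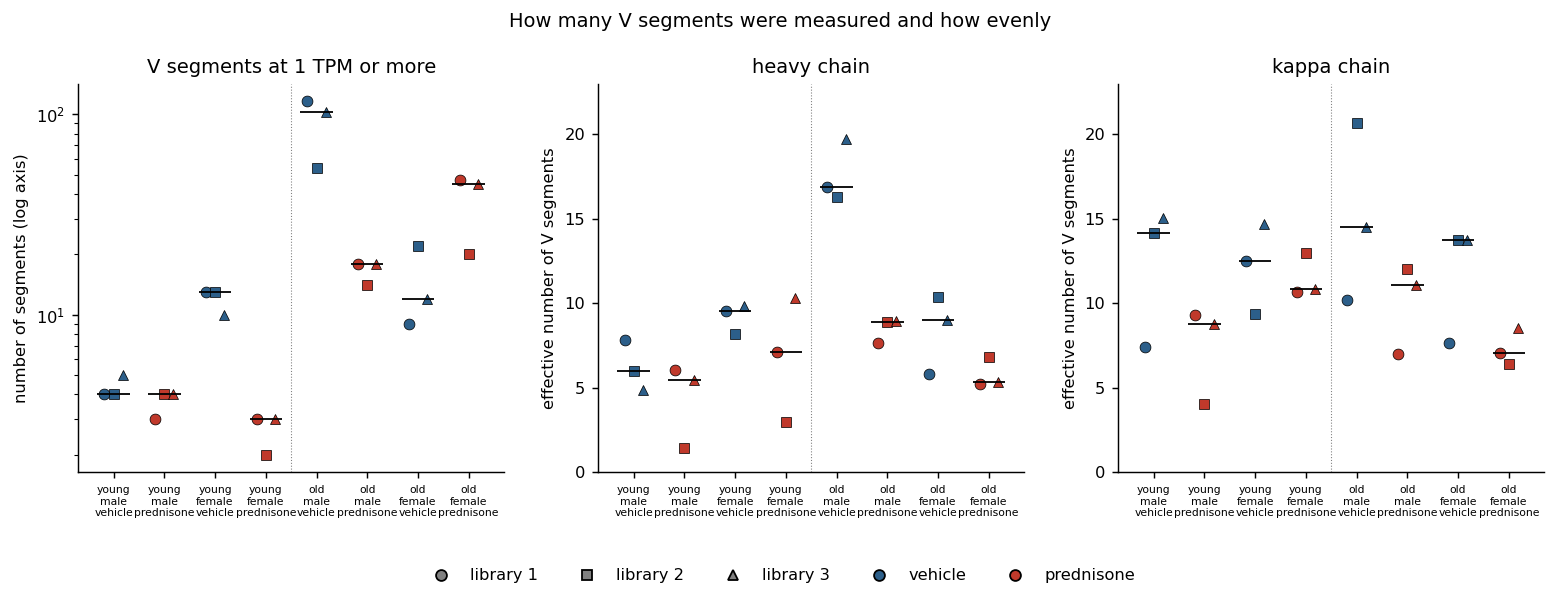
Number of V segments at 1 TPM or more (log axis) and effective number of heavy and of kappa V segments in the 24 libraries by group; symbols give the library number, colour the treatment and bars the group median. Old male vehicle muscle has 54 to 116 segments and a heavy effective number of 16.3 to 19.8, above each other library, while the kappa values of old and young libraries overlap. By the inverse Simpson index, not drawn here, the heavy values of old male vehicle muscle are not all above each other library.

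Which segments led differed from library to library. In old male vehicle library 1, Igkv6-20 reached 755 TPM and Igkv3-2 683 TPM, and Ighv14-4, Ighv1-53 and Ighv1-72 led the heavy chains with 199, 153 and 100.3 TPM. In library 2 of the same group Igkv6-20 was at 11.8, Igkv3-2 at 59.4 and Ighv14-4 at 1.16 TPM, and the leading heavy segment was Ighv2-9-1 at 16.1 TPM. Ighv2-9-1 was at 11.1 and 11.8 TPM in libraries 1 and 3, listed at 0 in old male prednisone muscle, and at most 0.631 TPM in any other library. Old female prednisone library 1 was led by Igkv10-96 at 285, Igkv4-55 at 161, Ighv5-17 at 112 and Ighv1-53 at 109 TPM. In library 2 of that group these 4 were at 0.718, 0.109, 0 and 0.747 TPM. Old female vehicle muscle was led by Igkv6-20 in all 3 libraries (13.3, 21.03 and 13.1 TPM).

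Ighv11-2 and Igkv14-126 are known as the heavy and light segment pair of a group of B-1a cells, whose antibodies bind phosphatidylcholine. The pair led both chains of old female prednisone library 2, where Ighv11-2 made up 42.7% of heavy V TPM and Igkv14-126 44.7% of kappa V TPM. Their levels there were 11.8 and 48.3 TPM. Old male prednisone library 1 held 9.93 and 46.3 TPM, and old male vehicle library 1 held 7.44 and 33.8 TPM. No other library held as much of either segment. Young female vehicle muscle had 1.08, 1.28 and 1.36 TPM of Ighv11-2 and 2.80, 8.94 and 5.14 TPM of Igkv14-126. In old female vehicle muscle Ighv11-2 was listed at 0 in all 3 libraries and Igkv14-126 was at most 0.815 TPM. Neither gene was called for age in both fits.

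**Figure D5:**
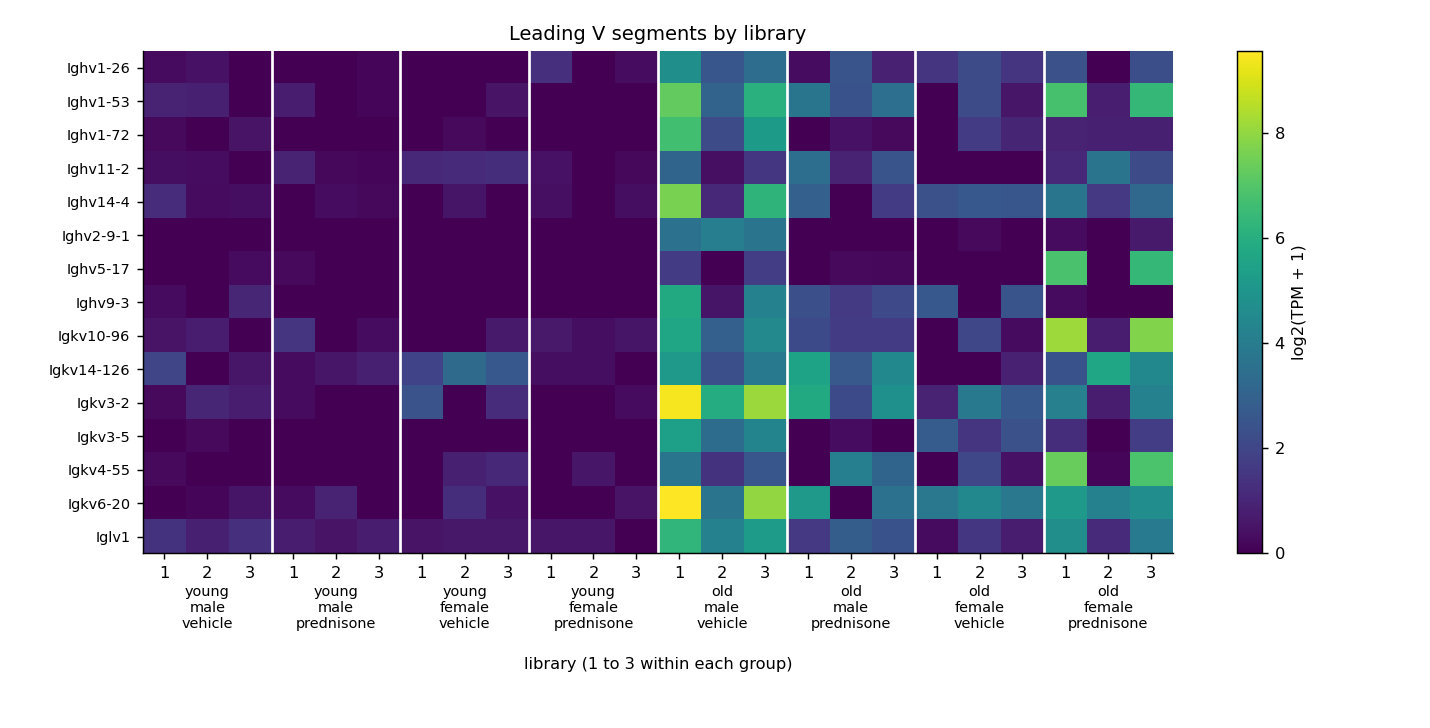
Levels of 15 leading V segments (rows) in the 24 libraries (columns, 3 per group); colour gives log2(TPM + 1). Igkv6-20 and Igkv3-2 peak in old male vehicle library 1 (755 and 683 TPM), Igkv10-96 and Ighv5-17 in old female prednisone library 1 (285 and 112 TPM), and most young cells are near 0.

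Few V segments reached 1 TPM in many libraries. Young female prednisone library 2 held only 2 at that level, so at most 2 could have reached it in all 24. The counts that follow depend on the amount of V segment RNA and do not measure sharing. No V segment reached 1 TPM in all 24 libraries, Igkv5-39 did in 14, Igkv14-126 and Igkv3-2 in 13 and Ighv14-4, Igkv6-20 and Iglv1 in 12. In all, 24 of 137 did so in exactly 1 library. At least 1 old library held 134 of the 137 at 1 TPM, and at least 1 young library held 37. The highest value lay in old male vehicle library 1 for 83 segments and in a young library for 10. By family, Ighv1 was the main heavy family at both ages, with a median of 51.8% of heavy V TPM in old and 60.01% in young libraries. Among kappa families Igkv6 (22.8%), Igkv3 (22.1%) and Igkv4 (17.02%) had the highest medians in old libraries. The corresponding medians in young libraries were 6.78, 6.77 and 8.08%.

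Of the V segments, 82 passed the filter on low values, most of them through the old groups where they were high, so their calls describe the same choice of members and support nothing further. For age 65 of the 82 were higher with 24 libraries and 19 with both fits, beside 14.8% and 4.88% of all tested genes. Among these were Igkv6-20 (by 4.35 ± 0.55), Igkv3-2 (3.88 ± 0.50), Ighv1-53 (3.29 ± 0.56) and Iglv1 (2.21 ± 0.31). In old males 58 of the 82 were lower with prednisone with 24 libraries, beside 19.9% of all genes, and 11 fell in both fits, beside 0.692%: Ighv1-47, Ighv1-76, Ighv1-84, Ighv2-9-1, Ighv7-3, Igkv1-110, Igkv17-127, Igkv3-5, Igkv4-50, Igkv4-86 and Igkv9-120. Their log2 differences ran from -4.25 ± 0.40 for Igkv3-5 to -1.36 ± 0.12 for Igkv4-86. Each was above 1 TPM in all 3 old male vehicle libraries. Igkv1-110, for example, was at 15.6, 21.5 and 15.3 TPM there and at 0.164 to 0.762 TPM with prednisone. The leaders Igkv6-20 and Ighv14-4, which differed many-fold between vehicle libraries 1 and 2, were not among them. Averaged over the sexes, Ighv2-9-1, Igkv3-5 and Igkv9-120 were lower with prednisone in old mice in both fits, beside 0.0231% of all genes. All 3 were among the 11 that fell in old males. In old females their log2 differences were 0.24 ± 0.15, -1.22 ± 0.40 and -0.52 ± 0.16, and none was called. The limma adjusted p with 24 libraries was 0.576, 0.182 and 0.158 there. Ighv2-9-1 was also the only member past both fits for the age by treatment interaction (-1.78 ± 0.15, where 0.0154% of all genes were lower), and it was the only gene of the whole table past both for the sex by treatment contrast in old mice (4.03 ± 0.21).

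Markers of the cells that could carry this RNA were measured beside it. The 15 B cell markers in the table summed to 54.7, 7.72 and 26.3 TPM in old male vehicle libraries 1 to 3, to 23.9, 10.1 and 20.8 TPM in old female prednisone libraries and to between 6.29 and 12.3 TPM in the other 18. Cd79a was at 7.04, 0.385 and 3.499 TPM in old male vehicle and at 3.14, 0.298 and 2.86 TPM in old female prednisone muscle, and at most 0.737 TPM in each other library. Ms4a1, a surface protein of B cells but not of most plasma cells, reached 2.21 TPM in old male vehicle library 1 and was at 0.085 TPM in library 2. That library still had 649 TPM of Igkc. Mzb1, a chaperone of antibody secretion, was at 9.08, 1.70 and 4.09 TPM in old male vehicle and 4.54, 1.62 and 3.59 TPM in old female prednisone muscle, and did not exceed 1.35 TPM elsewhere. The plasma cell markers Sdc1 (0.934 to 2.51 TPM) and Tnfrsf17 (0.142 to 0.732 TPM) stayed low in all libraries.

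For age, 14.8% of all tested genes were higher with 24 libraries and 4.88% with both fits. Of 8 tested B cell markers 4 were higher and 1 lower with 24 libraries, and none passed both fits (median log2 difference 0.50). In the plasma cell list 3 of 14 were higher and 2 lower, and only Cd28, also a T cell gene, rose in both (0.55 ± 0.05). Of 8 tested T cell markers 6 were higher with 24 libraries, and Cd3g, Trbc1 and Trbc2 rose in both fits (by 0.63, 0.66 and 0.96). The T cell list summed to 29.7 TPM in old male vehicle library 1, its highest value, and to 4.14 TPM at its lowest. Of 7 tested genes of the Fc receptor list 3 were higher and 1 lower with 24 libraries. Fcgr2b, the inhibitory receptor for IgG, and Fcgr4, an activating one, rose in both fits by 0.37 and 0.63. Of 5 tested genes of the lymphoid stroma list 2 were higher and 2 lower with 24 libraries. Only Cxcl13 of that list, the chemokine that draws B cells into follicles, rose in both fits, by 1.41 ± 0.15. No gene of these lists fell with age in both fits, where 4.33% of all tested genes did.

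In old males Cxcl13 fell with prednisone by 2.28 ± 0.29 (adjusted p = 4.62e-05 and 0.0382), from 16.9, 12.3 and 14.2 TPM to 0.652, 3.94 and 2.86 TPM, and Fcgr2b fell by 0.93 ± 0.14. With 24 libraries 2 of 5 tested lymphoid stroma genes and 4 of 7 of the Fc receptor list were lower there, beside 19.9% of all genes. In both fits 1 of each list was lower, beside 0.692%. In old females Cxcl13 was at 4.68, 9.69 and 5.61 TPM under vehicle and 2.58, 4.05 and 3.11 TPM under prednisone, so that it did not move with Igkc there. Both genes were also lower in young females than in young males in both fits (Cxcl13 by 1.44 ± 0.21 and Fcgr2b by 0.56 ± 0.10). With 24 libraries 1 of 5 tested lymphoid stroma genes was higher in young females and 1 lower. Of the Fc receptor list 3 of 7 were lower, beside 4.05% of all genes. Ebf1, a transcription factor in the B cell list, was higher in old females than in old males in both fits (by 0.46 ± 0.09). It was the only 1 of 8 tested genes of that list called, where 19.3% of all genes were higher with 24 libraries and 0.861% with both fits. The list median was -0.06 with 24 libraries and -0.20 with 16, so Ebf1 does not stand for the list. Of the class switching and germinal centre list no gene passed both fits for age or for treatment in old males. The part of these cells in the antibody result was not tested.

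Blood content was also measured. All 6 erythroid genes were higher in old muscle with 24 libraries and 5 rose in both fits (for example Hba-a1 by 2.53 ± 0.36, median of the list 2.51), and their share of TPM was 0.187 to 0.514% in young libraries. It was 0.390 to 0.552% in old male vehicle, 14.2, 0.749 and 6.25% in old male prednisone, 5.41, 0.917 and 3.80% in old female vehicle and 0.537 to 0.945% in old female prednisone muscle. The libraries with the highest antibody RNA, old male vehicle 1 and 3, were within 0.455 to 0.552%, and the library with 14.2% erythroid RNA had 232 TPM of Igkc. The part of blood in the antibody result was not tested. Because TPM is a share, a library with much erythroid RNA shows other genes lower. Rescaling by trimmed means moved the median of all genes by 0.12 in old males, -0.12 for sex in young mice and -0.17 in the sex by treatment contrast on the log2 scale. The members called in old males and in the sex by treatment contrast numbered 64 and 57 with it, against 65 and 60 without.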

How the data were processed

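Poly(A) RNA of 24 quadriceps samples was sequenced from stranded libraries. The authors deposited transcript-level TPM values, and the submitters' processing notes name FastQC, Trimmomatic, HISAT2, kallisto and the build mm10, with versions and roles not stated there. TPM keeps no read counts, so depth is unknown and no counting interval can be given. Transcripts were summed by gene symbol. limma 3.58.1 (R 4.3.3) was fitted on log2(TPM + 1) to 8 group means with an intensity trend, for 13005 genes at 1 TPM or more in at least 3 libraries, with Benjamini-Hochberg adjustment across the whole set. The threshold was an adjusted p of 0.05. The same genes were fitted with 24 and with 16 libraries, where the 16 leave out library 3 of each group. The fitting script was tested on simulated data.

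The members, lists and tests were chosen with earlier results of these data known. Named were all constant regions, segments past 0.05 in both fits (only examples for age) and those nearest the 1 TPM limit. Leading segments per chain were named for most old libraries (not Ighv9-3 or Ighv1-26) and for only some young ones. List genes past 0.05 in both fits were named with a few defining markers. Other settings were pseudocounts of 0.1 and 5, no filter, a filter of 6 libraries, trimmed-mean scaling, no trend and leaving out each library. Replicates were numbered in accession order, with no pairing. Germline sequences and coordinates come from GENCODE M21 on GRCm38/mm10.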

Additional observations from a re-analysis of the deposited data

Results flagged for a closer look

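The effect of prednisone differed between old females and old males for 8 constant and joining chain genes in the fit of 24 libraries, by the test of the difference itself. The difference, females minus males on the log2 scale, was 5.42 for Igkc, 5.80 for Iglc1, 3.73 for Iglc2, 2.35 for Ighm, 2.92 for Igha, 4.31 for Ighg2b, 5.67 for Ighg3 and 4.41 for Jchain. None of the 8 passed with 16 libraries, where the adjusted p ran from 0.133 to 0.367. Ighg3 passed the filter on low values only through old male vehicle and old female prednisone libraries 1 and 3. Its call therefore supports nothing further. Without old male vehicle libraries 1 and 3 and old female prednisone libraries 1 and 3, the difference changed sign for Ighg3 (-0.40) and Ighm (-0.047). For Ighv2-9-1 the same difference was 4.03 and passed with both 24 and 16 libraries. Its prednisone effect also differed between old and young mice, by -1.78 on the log2 scale, in both fits; the segment was at 11.1 to 16.1 TPM in old male vehicle muscle and under 1 TPM in all other libraries. It passed the filter on low values only through that group, so both calls describe its choice and support nothing further.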

How the results depend on the processing

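With 16 libraries in place of 24, the members called numbered 26 in place of 74 for age, 3 in place of 27 for treatment in old mice, 12 in place of 65 in old males, 0 in place of 8 in old females (limma; 0 in place of 1 in young mice), 1 in place of 13 for the age by treatment interaction, 6 in place of 44 for sex in old mice, and, in the comparisons added later, 1 in place of 60 for sex by treatment and 1 in place of 5 for sex in young mice. All tested genes lost calls too. Of 13005, 1921 were higher and 2353 lower for age with 24 libraries, and 639 and 566 with 16. For treatment, 294 and 832 became 3 and 3 in old mice, and 583 and 2592 became 9 and 90 in old males. For sex in old mice 2507 and 610 became 113 and 69, and for sex by treatment 1610 and 215 became 1 and 0. All-gene counts under the settings that follow are not given here. A filter of 6 libraries, which tests 41 members and not 91, gave 37, 8, 27, 5, 18 and 23 for age, treatment in old mice, treatment in old males, the interaction, sex in old mice and sex by treatment. Without old male vehicle libraries 1 and 3, a setting added after seeing the data, 32 were called in old males, 26 for sex in old mice and 35 for sex by treatment. Without those and old female prednisone libraries 1 and 3, 40 were called in old males, 30 for sex by treatment and 2 for treatment in young mice, and the sex by treatment difference changed sign for Ighg3 (-0.40) and Ighm (-0.047). Trimmed-mean scaling gave 5 in old females and 2 in young mice, no filter gave 4 and 0, and a pseudocount of 0.1 gave 8 for the interaction and 0 in young mice, as did fitting no trend there (0). Leaving out each library in turn gave 12 to 33 members for the interaction (33 without old male vehicle library 2), 2 to 25 in old females (25 without old female prednisone library 2), 0 to 3 in young mice and 46 to 71 in old males. At 5 TPM the age difference in segments was 14.2, and at 1% of the chain 2.58. The heavy effective number differed between the ages by 0.70 with the inverse Simpson index, in place of 3.45. That of kappa differed by -1.80 with this index, by 5.28 over segments at 1 TPM, and by -0.45 to 0.85 with each library left out. The cause was not tested. Of 78 single-gene differences past 0.05 with 24 libraries, 2432 of 2547 alternative values kept their direction and call, 113 lost the call (28 of these with 16 libraries) and 2 changed sign. No paired analysis was possible because the labels give no replicate numbers that groups share.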
